A study of Mus musculus with 3 samples.

Results

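The genes described here encode the enzymes that attach ubiquitin to proteins and remove it. They were taken by name, as every gene whose symbol starts with Ube2, Ube3, Uba, Usp, Fbxo, Fbxl, Fbxw, Trim or Rnf in the authors' tables of islet cell types. The beta-cell table held 178 such genes among its 8193. The alpha-cell table (186 genes) and the delta-cell table (231 genes) held 0. All values below are therefore from beta cells unless another cell type is named. The prefixes are not a perfect guide to function: 9 of the 178 genes were set apart as not known as enzymes of conjugation or removal. Among them, the Ubac, Ubald and Ubap genes are named for a ubiquitin-binding domain or for an association with ubiquitin, and Usp6nl encodes a protein that acts on Rab GTPases.

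The study compared pancreatic islets of 2 IRE1α beta-cell knockout mice with those of 1 IRE1αfl/fl control mouse. All were NOD/ShiLtJ, a strain that develops autoimmune diabetes, and were 5 weeks old. Every mouse, the control included, had been injected with tamoxifen (10 mg/ml, on 5 days) to switch on Cre recombinase, whose promoter is not given in the sources used here. Islets were cultured overnight and dissociated before droplet sequencing, in which a unique molecular identifier (UMI) marks 1 captured transcript.

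Ubiquitin is passed along a relay. An activating enzyme (E1) charges it, a conjugating enzyme (E2, the Ube2 genes) carries it, and a ligase (E3) chooses the protein that receives it. The ligases here are HECT enzymes (Ube3), RING enzymes (Trim and Rnf) and F-box proteins (Fbxo, Fbxl and Fbxw), which are the substrate-binding arms of SCF cullin ligases. Deubiquitinases, among them the Usp enzymes, take ubiquitin off again. Related relays attach SUMO, NEDD8, ISG15 and UFM1. In the secretory beta cell the system also clears misfolded proteins that are drawn out of the endoplasmic reticulum (ER), the compartment that IRE1α, encoded by Ern1, surveys.

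Upstream sequences of 3 genes are shown because the genes they belong to were a conjugating enzyme of ER-associated degradation with nearly equal UMIs per cell in both genotypes (Ube2j1), an interferon-related ligase that was lower in the knockout (Trim30a) and the ISG15-conjugating enzyme that was higher (Ube2l6). Each run is the 250 bases before the RefSeq start site, 5′ to 3′ on the gene's strand (build GRCm38.p6). Capitals mark a match, on either strand, to TGACGTGG, a form of the unfolded protein response element, in Ube2j1 (chr4:33031130-33031379, + strand), and to the interferon-stimulated response element, taken as GAAA, any 2 bases and GAAA again, in Trim30a (chr7:104465194-104465443, − strand). The Ube2l6 window (chr2:84798578-84798827, + strand) held no match to either.
Ube2j1: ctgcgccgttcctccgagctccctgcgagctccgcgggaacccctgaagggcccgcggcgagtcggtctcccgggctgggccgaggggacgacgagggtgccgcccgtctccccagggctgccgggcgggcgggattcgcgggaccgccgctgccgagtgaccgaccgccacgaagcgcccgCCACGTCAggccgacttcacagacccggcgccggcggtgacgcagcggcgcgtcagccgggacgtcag
Trim30a: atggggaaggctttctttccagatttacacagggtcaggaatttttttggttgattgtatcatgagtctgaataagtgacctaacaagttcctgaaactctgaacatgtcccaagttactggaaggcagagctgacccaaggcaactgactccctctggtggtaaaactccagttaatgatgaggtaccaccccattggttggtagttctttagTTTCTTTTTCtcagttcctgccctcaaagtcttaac
Ube2l6: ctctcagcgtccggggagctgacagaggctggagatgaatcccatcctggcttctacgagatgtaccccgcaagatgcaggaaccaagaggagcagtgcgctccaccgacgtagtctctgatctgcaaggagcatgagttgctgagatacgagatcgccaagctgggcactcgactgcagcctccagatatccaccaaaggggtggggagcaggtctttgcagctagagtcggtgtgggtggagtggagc
Upstream windows of 136 of the 178 genes were found in RefSeq. TGACGTGG occurred upstream of 2 of them, Ube2j1 and Fbxo9 (1.47%), and of 0.603% of the 27025 genes with such a window. The interferon-stimulated response element occurred upstream of 6 (4.41%) and of 3.46% of all genes. Those 6 genes ranged from a ratio of 0.303 (Trim30a) to 1.71 (Fbxo36), and the other 4 were Fbxl15, Rnf121, Rnf146 and Trim26.

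The beta-cell table gave the mean number of UMIs per cell over 815 knockout cells, pooled from both mice, and 829 control cells, and it held the genes that the authors list as different (largest q-value 0.00998 in the authors' deposited table). A ratio below is UMIs per knockout cell over UMIs per control cell, and brackets hold its exact 95% interval, which covers counting error only. With 1 control mouse and pooled knockout cells, no ratio could be set against the spread between mice, and none was tested. A ratio of at least 1.5 in either direction is counted as higher or lower in place of a test. The beta-cell markers Ins1, Ins2, Iapp, Mafa, Slc2a2 and Ucn3 were all present, at summed levels of 13364 UMIs per knockout cell and 22059 per control cell. Ern1, the targeted gene, had 0.742 UMIs per knockout cell and 0.509 per control cell, and whether its reads lie outside the deleted part is not given, so this checks nothing. Listed UMIs came to 24796 per knockout cell and 31552 per control cell, and without Ins1, Ins2 and Iapp to 11434 and 9498.

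Ubiquitin-family transcripts were mostly somewhat more numerous in the knockout beta cells, by about as much as the listed genes in general. Of the 178 genes, 173 lay above a ratio of 1 and 5 below it. Of all 8193 listed genes 95.0% lay above 1 and 5.04% below it. The median ratio of the ubiquitin-family genes was 1.42 (middle 50% of genes 1.28 to 1.62), and that of all listed genes was 1.45 (1.25 to 1.82). By the size rule 69 genes (38.8%) were higher, where 45.7% of all listed genes were, and 4 were lower (2.25%), where 2.47% were. Just inside the size rule stood Fbxo18 at 1.502, and just outside it Usp47 at 1.49 and Fbxl18 at 1.49. At least 2-fold higher were 13 genes (7.30%), where 19.8% of all listed genes were. Their transcripts summed to 123 UMIs per knockout cell and 91.8 per control cell. That is 1.08% of the listed UMIs of knockout cells and 0.967% of those of control cells, leaving out Ins1, Ins2 and Iapp.

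**Figure D1:**
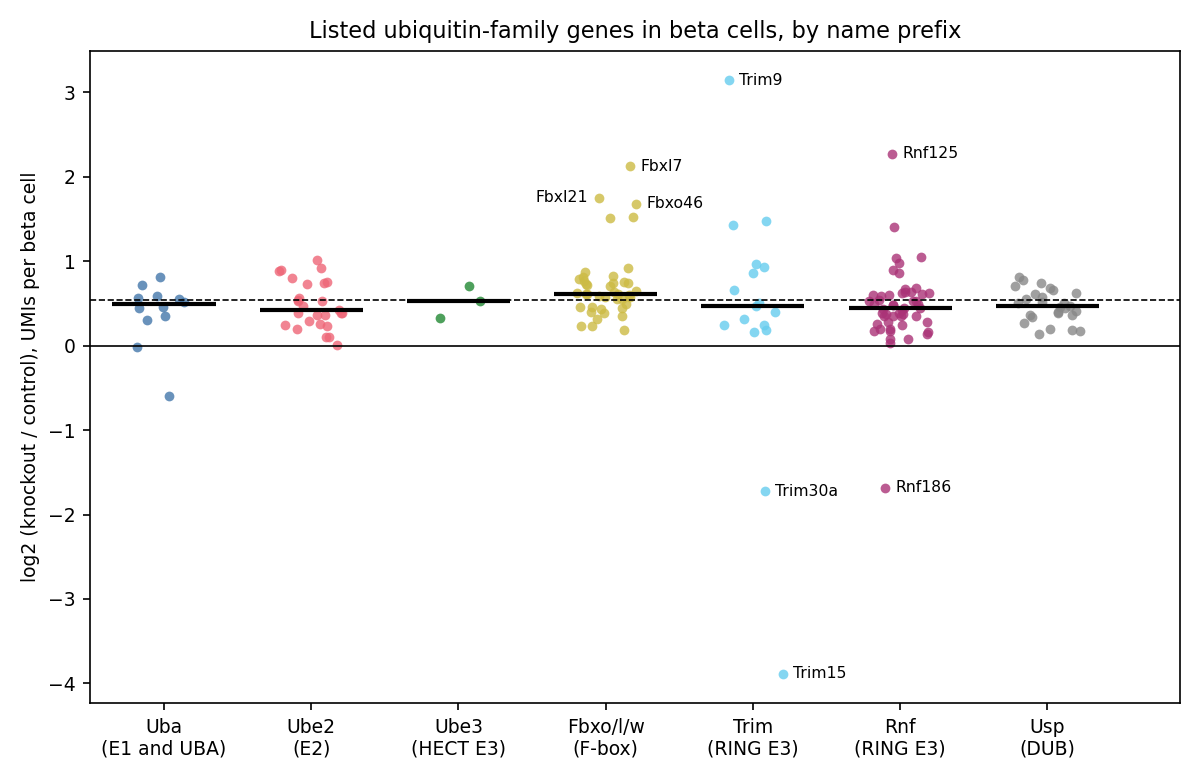
Each point is 1 ubiquitin-family gene, placed by its name prefix (x) and by the log2 ratio of knockout over control UMIs per beta cell (y). Thick bars are family medians, the dashed line is the median of all 8193 listed genes (0.54) and the solid line is 0. Most points lie between 0 and 1, with Trim15, Trim30a and Rnf186 lowest and Trim9 highest.

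Counting error was small beside most of these differences. The whole counting interval lay above 1 for 160 genes (89.9%), where it did for 87.0% of all listed genes. It lay below 1 for 4 (3.61% of all listed genes) and held 1 for 14 (9.40% of all). It passed 1.5 for 20 genes, where it did for 19.7% of all. Set against the median ratio of all listed genes, 10 genes (5.62%) were at least 1.5-fold above it and 4 as far below it, where 16.0% and 4.19% of all listed genes were. The whole interval lay below that median for 46 genes (25.8%), where it did for 27.7% of all, and above it for 25 (14.0%), where it did for 23.1%. The families thus held fewer of the large ratios than the table as a whole, and the next values set this beside abundance.

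The size of the ratio went with abundance, in these families as in the table as a whole. The 17 genes under 0.1 UMIs per cell (mean of both groups) had a median ratio of 2.64, and the 1405 listed genes of that range had 2.57. From 0.1 to 0.3 UMIs per cell the median ratios were 1.502 for 50 ubiquitin-family genes and 1.55 for all listed genes. From 0.3 to 1 they were 1.36 for 85 genes and 1.35 for all, and from 1 to 3 they were 1.24 for 24 genes and 1.23 for all. Only Ube2d2a and Ube2d3 exceeded 3 UMIs per cell. Up to that level the families' medians lay close to those of listed genes of like abundance.

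The listing itself shapes these ratios, since genes that the authors did not list are absent. Among the 2829 listed genes from 0.3 to 1 UMIs per cell, no ratio lay between 0.711 and 0.927. From 1 to 3 UMIs per cell none lay between 0.727 and 0.895. Both empty bands hold 0.786, the ratio of the listed totals of knockout and control cells. Genes with nearly equal UMIs per cell in both genotypes, such as Uba1 and Ube2j1 below, thus stand at the lower edge of the upper branch. Scaled to the listed totals their ratios were 1.26 and 1.28, and scaled to the listed totals without Ins1, Ins2 and Iapp they were 0.822 and 0.833. For genes near a ratio of 1 the direction hence depends on the scaling.

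**Figure D2:**
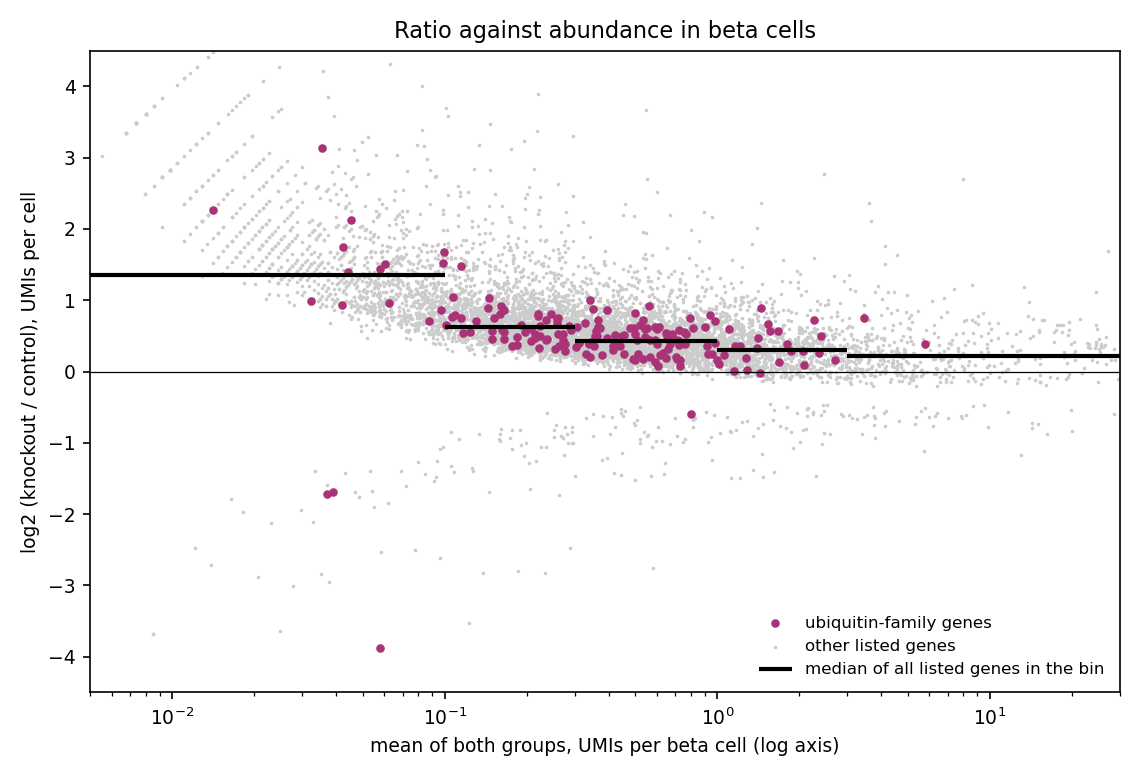
Log2 ratio of knockout over control (y) against the mean of both groups in UMIs per beta cell (x, log axis), for ubiquitin-family genes (coloured) and all other listed genes (grey, y axis cut at 4.5 on either side, genes with no UMI in a group left out). Black bars are medians of all listed genes in 5 ranges of abundance, from a ratio of 2.57 in the lowest to 1.16 in the highest, and the coloured points lie around them.

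At the head of the relay, activating enzymes did not share a ratio. Uba1, the main ubiquitin E1 (ENSMUSG00000001924, chromosome X, 20658326 to 20683179 in mm10), had 1.43 UMIs per knockout cell and 1.44 per control cell, a ratio of 0.989 [0.912 to 1.07]. Uba2, part of the SUMO E1, was at 1.23 [1.06 to 1.44] and Uba3, part of the NEDD8 E1, at 1.43 [1.23 to 1.66]. The 12 Uba-prefix genes had a median ratio of 1.40, but 8 of these are not activating enzymes. Among these 8 the ratio was highest for Ubac1 at 1.76 [1.41 to 2.19], with Ubald1 at 1.65, Ubald2 at 1.46 and Ubap2l at 1.28.

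The ubiquitin-like relays differed from one another. Ufm1, a modifier known from ER-bound ribosomes, had 3.08 UMIs per knockout cell and 4.36 per control cell, a ratio of 0.707 [0.672 to 0.744]. The modifiers Sumo2 and Sumo3 were at 1.69 and 1.54, and the SUMO-removing enzyme Uspl1 was at 1.42 [1.20 to 1.68]. NEDD8, which switches on cullin ligases, was at 1.21 [1.15 to 1.27], with its conjugating enzymes Ube2m at 1.29 [1.17 to 1.41] and Ube2f at 1.44 [1.27 to 1.62]. For ISG15, an interferon-induced modifier, the directions differed. Isg15 itself had 0.634 UMIs per knockout cell and 1.79 per control cell, a ratio of 0.354 [0.320 to 0.391]. Its conjugating enzyme Ube2l6 had 1.88 and 1.01 UMIs per cell, a ratio of 1.86 [1.71 to 2.03]. Isg15 was lower and Ube2l6 higher under each of the scalings tried.

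**Figure D3:**
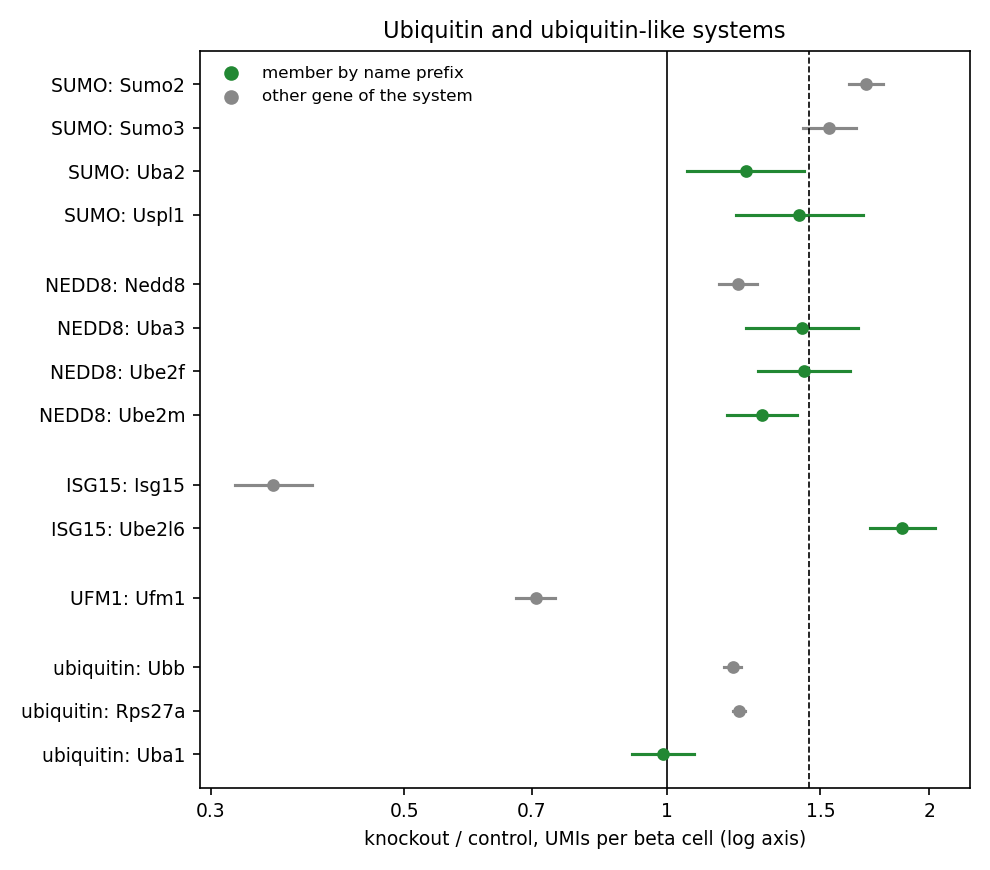
Ratio of knockout over control UMIs per beta cell (x, log axis) with exact 95% counting intervals for genes of the SUMO, NEDD8, ISG15, UFM1 and ubiquitin relays (y). Green marks genes taken by prefix and grey the modifiers. The solid line is 1 and the dashed line 1.45, the median of all listed genes. Isg15 and Ufm1 lie farthest left, both below 1.

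Genes that encode ubiquitin itself were also listed. Ubb, a polyubiquitin gene, had 22.2 UMIs per knockout cell and 18.6 per control cell, a ratio of 1.19 [1.16 to 1.22]. Rps27a, which encodes ubiquitin fused to a ribosomal protein, was at 1.21 [1.19 to 1.23], and near-identical copies of such genes can share reads, so its value is uncertain. In alpha cells Ubb was the one gene of the pathway lists in the table. It had 14.8 and 17.2 UMIs per cell in the knockout mice, 16.0 ± 1.71 (SD, n = 2), and 22.3 in the control mouse. Both knockout values lay below the control, at ratios of 0.663 [0.633 to 0.694] and 0.771 [0.733 to 0.811]. In delta cells the one gene was Socs3, the substrate arm of a cullin ligase that dampens cytokine signals, at 1.48 and 1.81 UMIs per cell in the knockout mice and 0.822 in the control.

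All 27 genes of the Ube2 prefix were at a ratio of 1.00 or above, with a median of 1.34. Higher by the size rule were 8 (29.6%), where 45.7% of all listed genes were. The summed level of the 27 genes was 42.1 UMIs per knockout cell and 30.8 per control cell. Close relatives had different ratios. In the Ube2d group, general-purpose E2s that work with many RING ligases, Ube2d1 was at 2.01 [1.68 to 2.41], Ube2d2a at 1.68 [1.60 to 1.78] and Ube2d3 at 1.30 [1.25 to 1.36]. Ube2d2a had 4.33 UMIs per knockout cell and 2.57 per control cell, and it had the smallest p-value of the 178 genes in the authors' deposited table. In the Ube2e group the ratio was 1.88 [1.64 to 2.16] for Ube2e2 and 1.68 [1.497 to 1.88] for Ube2e3, and 1.15 [1.05 to 1.25] for Ube2e1. Ube2b, the E2 of DNA-damage tolerance and of histone H2B, had 2.83 UMIs per knockout cell and 1.71 per control cell, a ratio of 1.65 [1.55 to 1.77]. Ube2r2, an E2 of SCF ligases, was at 1.74 [1.57 to 1.93].

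Several other Ube2 genes lay between 1.07 and 1.38. Ube2l3, which serves HECT and RBR ligases, had 2.14 and 2.00 UMIs per knockout and control cell, a ratio of 1.07 [0.999 to 1.14]. Ube2z, charged by the second ubiquitin E1, was at 1.07 [0.973 to 1.18]. Ube2k was at 1.23 [1.14 to 1.32]. Ube2n, which builds signalling chains together with Ube2v2, was at 1.38, and Ube2v2 at 1.31 [1.17 to 1.46]. Ube2s, which extends chains for the anaphase-promoting complex, was at 1.20 [1.12 to 1.27], but it overlaps the abundant Rpl28 on the other strand, and whether counting used the strand is not given. The cell-cycle E2 genes Ube2c and Ube2t, and the 5 proliferation markers looked for, were not among the listed genes.

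**Figure D4:**
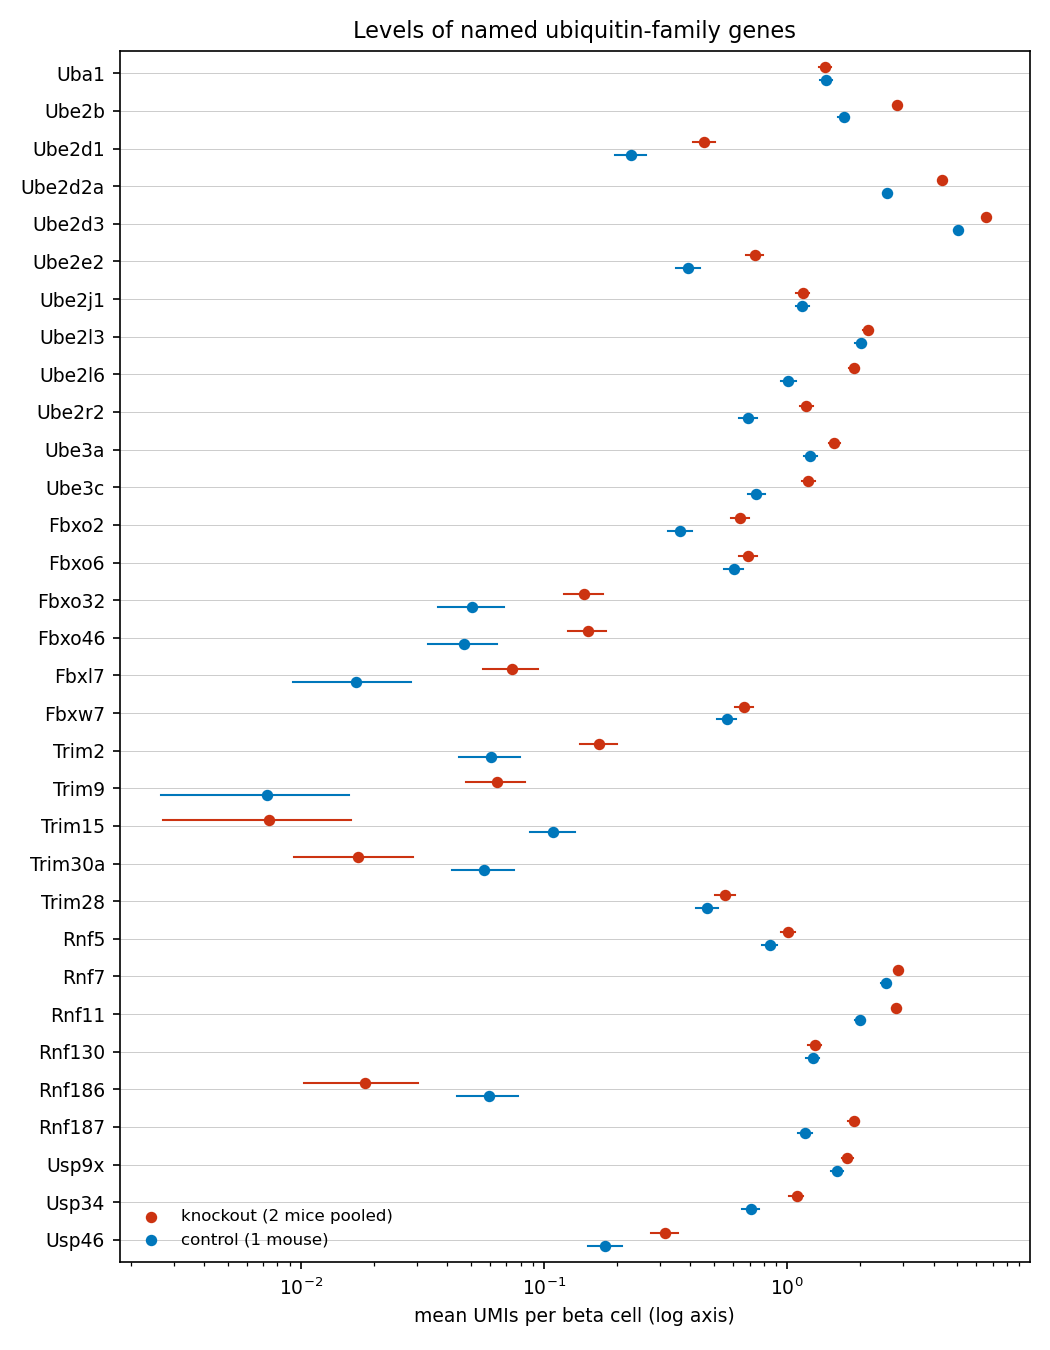
Mean UMIs per beta cell (x, log axis) of ubiquitin-family genes named in the text (y) in knockout cells (red, 2 mice pooled) and in the control mouse (blue), with exact 95% Poisson intervals, which cover counting error only. Knockout lies left of control for Trim15, Trim30a and Rnf186, and the pairs coincide for Uba1, Ube2j1 and Rnf130.

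The HECT ligase prefix Ube3 had 3 genes. Ube3c, which lengthens chains at the proteasome, was at 1.64 [1.48 to 1.81] with 1.22 UMIs per knockout cell and 0.747 per control cell. Ube3b was at 1.44 [1.19 to 1.76] and Ube3a, the imprinted Angelman syndrome gene, at 1.26 [1.16 to 1.37]. Of 15 other listed HECT ligases 5 (33.3%) were higher by the size rule, where 45.7% of all listed genes were. The 15 ran from Itch at 1.15 [0.972 to 1.35] up to Nedd4l, a regulator of ion channels, at 2.12 [1.72 to 2.63].

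F-box genes were the family with the highest share over the size rule. All 41 lay above a ratio of 1, and 25 (61.0%) were higher by at least 1.5-fold, where 45.7% of all listed genes were. Of the 20 Fbxo genes 16 were higher by that rule, of the 13 Fbxl genes 5 and of the 8 Fbxw genes 4. Many are of low abundance, the range in which listed ratios ran larger. Fbxl7 had 0.0736 UMIs per knockout cell and 0.0169 per control cell, a ratio of 4.36 [2.41 to 8.45] from 60 and 14 UMIs. Fbxo46 was at 3.21 [2.22 to 4.73]. Fbxo32, known as atrogin-1, a muscle-atrophy ligase driven by FoxO factors, had 0.146 and 0.0507 UMIs per cell, a ratio of 2.88 [2.01 to 4.20]. Among the more abundant F-box genes, Fbxo22 was at 1.65, Fbxo9 at 1.54, Fbxo33 and Fbxw2 at 1.53, Fbxl16 at 1.35 and Fbxw11 at 1.25. Fbxw7, which targets cyclin E and Myc, was at 1.18 [1.04 to 1.33].

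A cluster of 3 neighbouring F-box genes held different ratios. Fbxo2, Fbxo6 and Fbxo44 lie next to each other on chromosome 4 (148145716 to 148166424 in mm10), and the products of Fbxo2 and Fbxo6 bind N-glycans of proteins drawn from the ER. Fbxo2 had 0.639 UMIs per knockout cell and 0.362 per control cell, a ratio of 1.77 [1.53 to 2.04]. Fbxo44 was at 1.55 [1.28 to 1.88]. Fbxo6 had 0.688 and 0.603, a ratio of 1.14 [1.01 to 1.29], and its counting interval did not reach that of Fbxo2.

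Genes of the cullins and SCF core, a list that also holds parts of other cullin ligases, had a lower median ratio than the F-box genes (1.53). Of the SCF core itself, Cul1 was at 1.46 [1.29 to 1.65] and Skp1a at 1.28 [1.16 to 1.41]. Of the 14 listed genes of the list, none was higher by the size rule, where 45.7% of all listed genes were, and the median ratio was 1.22. Listed ratios ran smaller at higher abundance (mean of both groups): 17.7% of all listed genes from 1 to 3 UMIs per cell were higher, and 15.0% above 3. The share was 28.7% from 0.3 to 1 UMIs per cell and 57.7% from 0.1 to 0.3. Of the list, Cand1, Cul1, Cul4a, Cul5 and Dcun1d1 lay from 0.3 to 1. Cul4b and Cul7 lay from 0.1 to 0.3, and the rest of the list above 1. Elob, an adaptor of cullin ligases, had 10.8 UMIs per knockout cell and 11.8 per control cell, a ratio of 0.915 [0.889 to 0.942], and the RING subunit Rbx1 was at 0.961 [0.920 to 1.00]. Rnf7, the other RING subunit of cullin ligases, was at 1.12 [1.06 to 1.19]. All 10 genes of the COP9 signalosome, which removes NEDD8 from cullins, were listed with a median of 1.31, from Cops9 at 1.10 to Cops7b at 1.87.

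The Trim family had the widest spread of the 7. It had 17 listed genes, and a median ratio of 1.39. By the size rule 7 (41.2%) were higher and 2 lower, where 45.7% and 2.47% of all listed genes were. The family held both ends of the whole set. Trim15 (chromosome 17, 36860691 to 36867210 in mm10), which in human cells is known at focal adhesions, had 6 UMIs in 815 knockout cells and 90 in 829 control cells. These are 0.00736 and 0.109 UMIs per cell, a ratio of 0.0678 [0.0242 to 0.153]. Its neighbour Trim26 was at 1.13 [0.992 to 1.30]. Trim30a, an interferon-induced mouse gene that dampens inflammatory signalling, had 14 and 47 UMIs in knockout and control cells, a ratio of 0.303 [0.154 to 0.560], and close copies of it exist in the Trim30 cluster. Trim9, a ligase of neurons, had 52 and 6 UMIs, a ratio of 8.82 [3.79 to 25.1]. Trim2, also known from neurons, had 0.168 UMIs per knockout cell and 0.0603 per control cell, a ratio of 2.79 [2.00 to 3.93].

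Other Trim genes lay nearer to the middle. Trim41 was at 1.41 and overlaps Rack1 on the other strand. Trim28, the corepressor that silences retroelements, was at 1.18 [1.03 to 1.36], Trim44 at 1.18 [1.07 to 1.31] and Trim56, an antiviral ligase, at 1.12 [0.996 to 1.25]. Trim8, which acts in cytokine signalling, was at 1.82 [1.54 to 2.15] with 0.507 UMIs per knockout cell and 0.279 per control cell. Trim21, an antibody receptor of the cytosol, was at 1.58 [1.15 to 2.19]. The 6 genes with roles in antiviral and interferon signalling were Ube2l6, Trim21, Trim30a, Trim56, Rnf125 and Rnf135. By the size rule 4 of the 6 were higher and 1 lower, where 45.7% and 2.47% of all listed genes were. Several had few UMIs in knockout and control cells: Rnf125 19 and 4, Rnf135 102 and 57, Trim21 101 and 65 and Trim30a 14 and 47. Under 0.1 UMIs per cell 94.2% of all listed genes were higher, and from 0.1 to 0.3 57.7%.

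The Rnf family, 51 genes, had a median ratio of 1.36. By the size rule 17 (33.3%) were higher and 1 was lower, where 45.7% and 2.47% of all listed genes were. The lower one was Rnf186 (chromosome 4, 138967112 to 138968360), an ER-resident ligase known from the colon epithelium, with 15 UMIs in knockout and 49 in control cells, a ratio of 0.311 [0.162 to 0.565]. Rnf187, a RING ligase tied to the AP-1 factor Jun, had 1.88 UMIs per knockout cell and 1.18 per control cell, a ratio of 1.59 [1.46 to 1.72]. Rnf11, a partner of the NF-κB inhibitor A20, was at 1.41 [1.32 to 1.504]. Rnf146, which recognises poly-ADP-ribose, was at 1.54 [1.30 to 1.82]. Rnf2, the catalytic ligase of Polycomb, was at 1.55 [1.29 to 1.86]. Rnf20, the partner of Ube2b on histone H2B, was at 1.13 [0.979 to 1.30], and Rnf4, which reads SUMO chains, at 1.15 [1.02 to 1.29]. Rnf114 and Rnf149 were at 1.54 and 1.52. Rnf130, Rnf19b, Rnf181 and Rnf126 were near equal counts, at 1.02, 1.05, 1.05 and 1.10. Rnf125, at 4.83 [1.61 to 19.5], rests on 19 and 4 UMIs.

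Genes that act at the ER membrane or in ER-associated degradation were mostly below the median of the listed genes. The set of 19 ran across the families. It was drawn from known roles once the members, and earlier results of these data, were known. Of these, 15 lay below the median ratio of all listed genes and 4 above it, and the set's median was 1.29. The whole counting interval lay below that median for 8 of the 19 and above it for 2, where it did for 27.7% and 23.1% of all listed genes. The set summed to 11.2 UMIs per knockout cell and 8.97 per control cell. From 0.3 to 1 UMIs per cell the median of all listed genes was 1.35, nearer to that of the set. The highest of the set was Rnf180 at 1.98 [1.09 to 3.71], from 35 and 18 UMIs, and the lowest Rnf186 at 0.311. Ube2j1, the ER-anchored E2, had 1.16 UMIs per knockout cell and 1.15 per control cell, a ratio of 1.00 [0.915 to 1.10], and Ube2j2, its relative, was at 1.29 [1.16 to 1.43]. Ube2g2, the soluble E2 of the same pathway, was at 1.31 [1.16 to 1.48], and its relative Ube2g1 at 1.84 [1.55 to 2.20]. The ER ligase genes Rnf5, Rnf103, Rnf139 and Rnf145 were at 1.19, 1.19, 1.29 and 1.44. Usp19, a deubiquitinase with an ER-anchored form, was at 1.20 [1.06 to 1.36]. Of 20 other genes looked for in ER-associated degradation 12 were listed, with a median of 1.35. These ran from Ubxn4 at 1.02 [0.948 to 1.09] to Derl3 at 2.09 [1.65 to 2.68]. Among them were Vcp, the extracting ATPase, at 1.16 [1.09 to 1.24], and Herpud1, a scaffold induced by ER stress, at 1.48 [1.39 to 1.57].

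Genes of the Usp prefix, most of them deubiquitinases, all lay above a ratio of 1. The 27 genes, which include Usp6nl and the SUMO-removing Uspl1, ran from 1.10 for Usp9x to 1.75 for Usp46, all with counting intervals above 1, and had a median of 1.38. By the size rule 8 (29.6%) were higher, where 45.7% of all listed genes were. Usp9x, an X-linked enzyme of broad range, had 1.76 UMIs per knockout cell and 1.60 per control cell, a ratio of 1.10 [1.02 to 1.18]. Usp22, of the SAGA complex, was at 1.13 [1.01 to 1.27], Usp14, which acts at the proteasome, at 1.31 [1.16 to 1.49] and Usp7, which stabilises Mdm2, at 1.38 [1.22 to 1.55]. Usp16, which acts on histone H2A and overlaps Cct8 on the other strand, was at 1.12 and Usp4 at 1.15, while Usp47 was at 1.49 and Usp8, which acts on endosomes, at 1.53. Usp34 had 1.09 and 0.708 UMIs per cell, a ratio of 1.54 [1.39 to 1.71]. Usp10, which acts in ribosome rescue, was at 1.72 [1.38 to 2.14] and Usp3, which acts on histones, at 1.58 [1.37 to 1.81]. Among 22 listed deubiquitinases of other families the median was 1.29, and Uchl1, a neuronal and neuroendocrine enzyme, stood far above the rest, with 0.767 UMIs per knockout cell and 0.151 per control cell, a ratio of 5.09 [4.19 to 6.21].

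**Figure D5:**
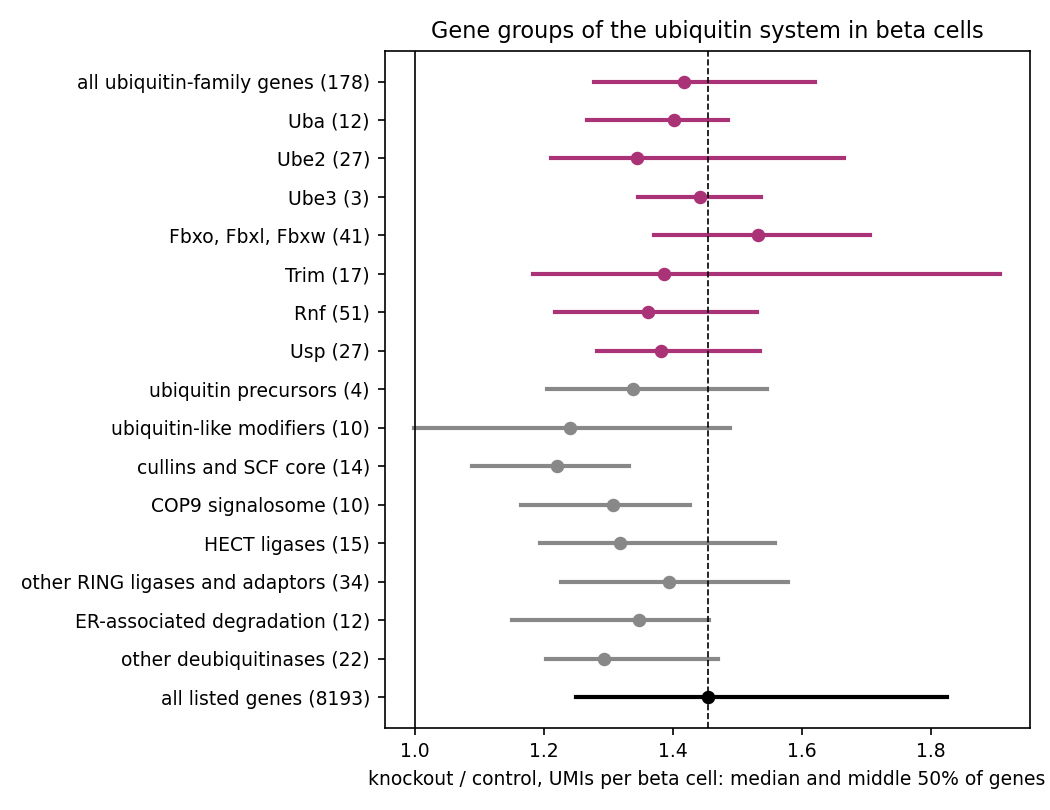
Ratio of knockout over control UMIs per beta cell (x) for gene groups of the ubiquitin system (y, number of listed genes in brackets). Points are medians and bars span the middle 50% of genes. Families taken by prefix are coloured, other gene lists grey and all listed genes black, and the dashed line is the median of all listed genes at 1.45. The median of the F-box family lies right of that line, and the median of the cullins and SCF core lies farthest left.

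Coverage differed by family. Of the protein-coding genes that GENCODE M21 gives these prefixes, 51.0% were listed in beta cells, and 35.7% of all protein-coding genes were. The share was 73.0% for Ube2 (27 of 37), 59.8% for Rnf (52 of 87), 51.9% for the F-box genes (40 of 77), 47.4% for Usp and 24.3% for Trim (17 of 70). These counts go by GENCODE's names, under which Fbxo18 is not an F-box symbol and 1 gene that the table lists under another name is an Rnf gene, so they differ by 1 from the 41 and 51 above. Of the 49 genes chosen to be named wherever listed, 13 were not listed and were not analysed here, among them Uba6, the second ubiquitin E1, Usp18, which removes ISG15, and Rnf185, an ER ligase.

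Summed markers of other cell types were higher in the knockout beta cells for every list with a listed gene except the immune one. Summed alpha-cell markers (3 of 5 listed) came to 113 UMIs per knockout cell and 48.8 per control cell, delta-cell markers (3 of 4) to 64.6 and 39.6, and PP and epsilon-cell markers (2 of 3) to 107 and 21.7. Duct markers (4 of 6) came to 70.3 and 38.4, mesenchymal markers (3 of 6) to 0.108 and 0.00844, endothelial markers (2 of 5) to 0.363 and 0.192 and immune markers (3 of 6) to 0.415 and 0.586. Within these lists genes went both ways: the endothelial Cdh5 had 1 UMI in knockout and 13 in control cells, and the macrophage gene Cd68 had 47 and 339. Globin genes (3 of 4) came to 22.6 and 0.0639 UMIs per cell. The 1 listed acinar marker of 7, Reg3b, was at 0 in control cells and at 0.114 in knockout cells, and Col1a1 of the mesenchymal list was at 0 in control cells. The part of these transcripts in the ratios of the ubiquitin genes was not tested.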

How the data were processed

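Single cells of pancreatic islets from 2 knockout mice and 1 control mouse were measured. Cell Ranger 3.0.0 and mm10 are named per the submitters' processing notes. The filters on cells, the naming of cell types, how doublets and free RNA were treated, whether strand was used and which test the authors ran are not given in the sources. The authors deposited, per cell type, a signal per gene, read here as the mean of UMIs over cells: multiplied by 829 (control) and 815 (knockout) they gave whole UMIs within 0.001 for 99.99% and 100% of the beta-cell genes. No scaling for depth was seen. The p-values and q-values deposited by the authors cannot rest on mice as replicates, with 1 control mouse, and were used only where the text names them. Unlisted genes were not analysed here. The header of the alpha-cell table is shifted by 1 column and was read against its values. Overnight culture and dissociation can alter stress transcripts in every sample. Replicates are 2 mice and 1 mouse.

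Ratios were computed with no pseudocount. Where a group had 0 UMIs, 3 UMIs over its cells stood in for log2 medians. Intervals are Clopper-Pearson on the split of UMIs (Python 3.11.15, scipy 1.17.1). Their calculation was checked on simulated counts that held counting error only. The simulation had no added spread between cells or mice, so it cannot show how the intervals fare with such spread. All 178 identifiers matched GENCODE M21 (mm10). The 178 genes had 23 or more UMIs over both groups, with a median of 682.5. Exons of 39 overlapped those of another protein-coding gene, 8 of them on the same strand. Members, lists and roles were chosen with earlier results of these data known. Genes were named by a rule: the 4 highest and 4 lowest ratios per prefix group among genes whose higher mean reached 0.412 UMIs per cell, the 2 with the most UMIs per group, every gene below a ratio of 1 and a list of genes of known roles. Some genes the rule takes are not reported here. Other genes were named after their values were seen, among them Fbxl7, Fbxo46, Ubac1, Rnf125 and relatives or partners of named genes. Settings also tried were 2-fold as the size rule, keeping genes whose higher mean reached 0.412, adding a pseudocount, centring on the median of all genes, and scaling to listed totals with and without Ins1, Ins2 and Iapp. Added after seeing the data were a count by whole intervals and the removal of genes not known as enzymes. Motifs were searched in 250 bases upstream of RefSeq starts.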

Additional observations from a re-analysis of the deposited data

Results flagged for a closer look

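Ubb lay on opposite sides of the control in 2 cell types. In alpha cells it was at a ratio of 0.717, and both knockout mice were below the control mouse, while in beta cells it was at 1.19 over the pooled knockout cells. The difference between the cell types was not tested. The median log2 fold of all listed genes was -0.29 in alpha cells and 0.54 in beta cells, and relative to these Ubb was lower in both.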

How the results depend on the processing

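The count of higher ubiquitin-family genes depended on the setting. Against 69 of the 178 genes as reported (45.7% of all listed genes) it was 13 at a fold of 2 (19.8% of all). After the filter on low values it was 27 of the 100 genes kept, where 25.4% of all genes kept were higher. With a pseudocount of 0.0519 UMIs per cell it was 37 (26.5% of all), and after centring on the median 10 (16.0% of all). Scaling to listed totals gave 150 (83.2% of all), and scaling without Ins1, Ins2 and Iapp 24 (25.7% of all). Where the whole counting interval had to pass 1.5 it was 20 (19.7% of all). It was 66 of 169 for known enzymes only, where 45.7% of all listed genes were higher with the same genes left out. The 4 lower genes became 1 after the filter, which removes Trim15, Trim30a and Rnf186, and were 3 or 4 otherwise. Of all listed genes 2.47% were lower as reported, and 2.73% of those kept by the filter. The median log2 fold of 0.50 became 0.44 after the filter, 0.42 with the pseudocount, 0.85 and 0.24 after the scalings, and -0.037 after centring. By direction, 173 of the 178 genes were higher as UMIs per cell, 174 and 143 after the scalings, and 80 after centring. The median of the Uba prefix, 0.49, was 0.14 for its activating enzymes alone. The scalings and centring shift every ratio by a constant, and the filter and the enzyme set leave out genes. No paired analysis was possible because the beta-cell table pools the knockout mice and has 1 control. Leaving out a mouse and edgeR's test on recovered UMIs, planned for alpha and delta cells, were not run because those tables list 0 of these genes. Counting error limits genes of few UMIs, such as Rnf125 and Trim9, and the spread between mice is unknown for all.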
